A study of Mus musculus with 10 samples.

Results

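The genes described here are the named pseudogenes whose transcripts were measurable in mouse liver, each set beside the functional gene it carries the name of. A gene belonged to the set when its symbol ended in -ps, or in -ps and digits, and when it held at least 0.5 FPKM (fragments scaled to the length of the transcript and to the size of the library) in at least 5 of 10 libraries. Of 29657 genes in the table, 647 had such a symbol and 259 met the rule on level, and the other 388 fell below it. The level in each library therefore chose the members and is given as a description, while the comparison of the groups did not enter the choice.

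A pseudogene is a copy of a gene that has lost, or is presumed to have lost, the ability to make the original protein. Processed pseudogenes arise when the spliced messenger RNA of an active gene is reverse transcribed and inserted elsewhere in the genome, so they lack introns and often lack a promoter of their own, and genes with abundant messenger RNA, above all those for ribosomal proteins, have left many such copies. Unprocessed pseudogenes arise by duplication of a stretch of the genome and keep introns, as in the major urinary protein cluster of the mouse. Because short fragments from a young copy and from its parent can be the same letter for letter, a level assigned to such a pseudogene can include fragments of the parent.

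The libraries were poly(A)-selected RNA from whole liver of C57BL/6 mice, all kept for 8 weeks on CDAHFD, a choline-deficient, L-amino acid-defined diet high in fat that produces fatty and inflamed liver. The control group, labelled wild type, had 5 libraries and received AAV8-NC, a control vector. The second group had 5 libraries and received AAV8-TBG-galectin-3, named in the labels as a knockdown of galectin-3 in hepatocytes; TBG is a promoter used for hepatocyte expression, and the insert of the vector is not described. The labels number the replicates without stating which animal each came from, so p-values measure the spread between these libraries. Age and sex are not in the labels, and no batch that separates libraries is given.

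In whole liver the level of the targeted gene did not go with its label. Lgals3, which encodes galectin-3, held 42.2 to 105 FPKM in the control libraries (70.8 ± 22.9, SD, n = 5) and 41.9 to 90.8 FPKM in the other libraries (74.2 ± 20.1, SD, n = 5). The log2 fold change was 0.08 with a standard error of 0.25 (limma, adjusted p = 0.856). The label names hepatocytes and the RNA came from all cells of the liver, so Lgals3 of hepatocytes alone was not measured. The second group is called the labelled knockdown throughout. Hepatocyte markers made up a summed 30131 to 38797 FPKM per library, and each library had 21653 to 23079 genes above 0. The summed level of 6 markers of dividing cells was 4.96 to 37.8 FPKM in the control libraries and 2.19 to 9.35 FPKM in the labelled knockdown, and 6 of these 6 were called lower. Of 10 Kupffer cell and macrophage markers (summed 259 to 367 and 199 to 311 FPKM), 9 had a negative log2 fold change, 6 were lower at an unadjusted limma p under 0.05, as were 19.6% of all genes tested, and 2 were called lower after adjustment. Of 8 stellate cell markers (summed 47.0 to 65.1 and 23.7 to 55.1 FPKM), 7 had a negative log2 fold change and 2 were called lower. At an unadjusted limma p under 0.05, 4 of them were lower, against the same 19.6% of all genes tested. Of 6 hepatocyte markers, 1 was called higher and 2 lower. The calls in these lists stand beside 7.13% called higher and 9.65% called lower among all genes tested. No marker of these lists was at 0 in every library, and the part of a change in cell types in the results below was not tested. In bulk liver, fewer cells of a type and less RNA per cell cannot be told apart.

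Sequence was compared first, because it sets how separately a pseudogene and its parent can be measured. Of the 259 members, 248 had a transcript in GENCODE M21, an annotation of mouse build GRCm38, matched by Ensembl identifier, and 210 of these could be aligned to a parent. The median identity over the aligned part was 99.1%, from 78.1% for Zrsr2-ps1 to 100%, and 28 members were identical to the parent over the aligned part. The 265 aligned pseudogenes that failed the rule on level had a median identity of 95.7%, and 2 of them were identical. Cutting each member into all its overlapping windows of 100 bases, a median of 52.8% of windows were found unchanged in the parent, against 2.03% for the pseudogenes that failed the rule. By both measures the members as a set were closer to a parent than the pseudogenes that failed the rule. No test is given, since a level that includes fragments of the parent can itself have brought a copy past the rule.

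**Figure D1:**
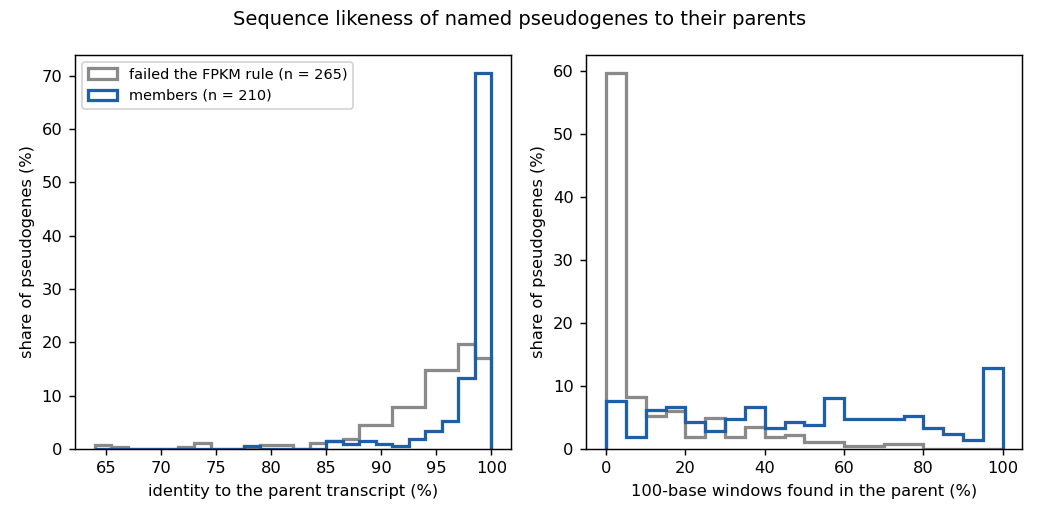
Left, identity of named pseudogenes to the parent transcript (%, x axis) against the share of pseudogenes (%, y axis); right, the percentage of 100-base windows found unchanged in the parent. The 210 aligned members (blue) pile up close to 100% identity, and the 265 aligned pseudogenes that failed the FPKM rule (grey) spread to lower identity and mostly share few windows with the parent.

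Of the 248 members with a transcript, 38 had every 100-base window in some other gene and 7 had none there. Reading the parent's frame through the alignment, 123 members covered at least 95% of the parent's coding sequence with no frameshifting gap and no stop codon within the frame, while 56 members had a frameshifting gap or a stop codon.

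For 5 pairs the sequence of pseudogene and parent follows; they were chosen because they span the range of likeness and because each pseudogene was called lower. Each line is coding-strand sequence 5′ to 3′, from GENCODE M21 transcripts, taken over 120 alignment columns within the parent's coding part, and capitals mark bases that differ from the other line of the pair or stand against a gap. For Idi1-ps1 and Idi1 the first aligned stretch held 0 differences.
Idi1-ps1: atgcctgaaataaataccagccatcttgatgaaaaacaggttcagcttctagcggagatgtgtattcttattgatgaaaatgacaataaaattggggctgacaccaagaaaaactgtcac
Idi1: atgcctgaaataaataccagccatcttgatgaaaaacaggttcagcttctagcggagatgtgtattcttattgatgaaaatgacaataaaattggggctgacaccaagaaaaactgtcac
For Zrsr2-ps1 and Zrsr2 the first aligned stretch held 39 differing columns, gaps included.
Zrsr2-ps1: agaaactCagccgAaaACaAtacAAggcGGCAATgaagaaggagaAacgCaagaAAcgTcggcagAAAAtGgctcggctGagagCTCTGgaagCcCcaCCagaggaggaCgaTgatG
Zrsr2: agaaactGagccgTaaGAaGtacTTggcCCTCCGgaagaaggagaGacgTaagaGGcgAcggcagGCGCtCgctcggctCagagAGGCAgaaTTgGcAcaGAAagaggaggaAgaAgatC
For Got2-ps1, Ap2m1-ps and Csnk2a1-ps3 the stretch with the most differences is shown, with 4, 2 and 1 differing columns.
Got2-ps1: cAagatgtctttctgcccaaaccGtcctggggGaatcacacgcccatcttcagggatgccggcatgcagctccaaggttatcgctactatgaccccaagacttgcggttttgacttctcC
Got2: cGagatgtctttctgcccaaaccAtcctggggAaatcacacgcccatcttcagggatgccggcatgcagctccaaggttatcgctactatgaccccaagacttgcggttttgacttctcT
Ap2m1-ps: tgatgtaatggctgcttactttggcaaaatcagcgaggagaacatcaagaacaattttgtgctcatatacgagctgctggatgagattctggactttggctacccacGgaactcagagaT
Ap2m1: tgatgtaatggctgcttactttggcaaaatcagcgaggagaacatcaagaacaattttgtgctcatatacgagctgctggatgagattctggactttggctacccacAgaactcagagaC
Csnk2a1-ps3: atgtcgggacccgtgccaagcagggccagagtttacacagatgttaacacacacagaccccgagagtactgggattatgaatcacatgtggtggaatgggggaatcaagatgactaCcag
Csnk2a1: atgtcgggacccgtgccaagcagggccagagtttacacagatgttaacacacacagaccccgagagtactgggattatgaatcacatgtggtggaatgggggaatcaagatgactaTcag
Even at their most different stretch these 3 copies left long runs of letters in common with the parent, whereas Zrsr2-ps1 differed from Zrsr2 every few bases.

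The 259 members comprised 198 genes typed in the table as processed pseudogenes, 26 as unprocessed pseudogenes, 9 as transcribed processed, 5 as transcribed unprocessed and 1 as unitary, along with 11 typed as protein coding, 8 as lncRNA and 1 as a retained intron. By the role of the parent, 109 were copies of ribosomal protein genes, 10 of translation factors or ribosome assembly factors, 21 of mitochondrial proteins, 26 of metabolic enzymes and ferritins, 8 of major urinary proteins, 9 of immune and plasma proteins, 25 of RNA-binding, chromatin and transcription proteins, and 51 of other proteins. A pair of symbols, Mfsd4b3-ps and Ubb-ps, each stood for 2 genes.

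Levels ran from a mean of 0.488 to 6333 FPKM over the 10 libraries, with a median of 3.20 FPKM. The rule's edge lay among weak genes: just inside it, Rps12-ps17 had a fifth-highest library of 0.515 FPKM, Ap3s1-ps2 of 0.516 and Anapc15-ps of 0.519, and just outside it Zfp968-ps had 0.499, Tes3-ps 0.499 and Tpt1-ps5 0.496. The minimum was reached in 10 of 10 libraries by 197 members and only through 1 group, the labelled knockdown, by 2 members, Rpl17-ps4 and Rps12-ps17. Their level in that group brought them into the set, so a higher level there is not a separate result. Both are counted below among the members whose groups did not overlap, and 1, Rpl17-ps4, among those called higher. Other weak members, such as Api5-ps, also needed libraries of the labelled knockdown to meet the rule, and their rise carries a like limit.

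The most abundant member was Atp6-ps, a nuclear copy on chromosome 1 of the mitochondrial gene mt-Atp6, which encodes a subunit of ATP synthase. Atp6-ps held 5094, 5439, 5698, 5396 and 6793 FPKM in control libraries 1 to 5 and 9626, 6974, 5908, 6503 and 5895 FPKM in labelled knockdown libraries 1 to 5. mt-Atp6 held 4848, 5177, 5430, 5163 and 6506 FPKM in the controls and 9229, 6692, 5684, 6246 and 5665 FPKM in the labelled knockdown. Both were highest in labelled knockdown library 1, and neither was called (limma adjusted p = 0.234 and 0.219). The transcript of Atp6-ps, 678 bases long, was identical over its whole length to the mitochondrial transcript of 681 bases, and the ratio of their FPKM stayed between 1.04 and 1.05 in 10 of 10 libraries. The deposited values thus track each other for this pair in every library, and these data hold no measure of the nuclear copy apart from the mitochondrial gene.

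Next came Mup-ps19 with a mean of 972 FPKM, Mpc1-ps with 345, Rps12-ps3 with 228, Rpl17-ps10 with 159 and Rpl7a-ps11 with 124. Without Atp6-ps and the major urinary protein copies, the members held 0.755 to 0.866% of all FPKM in a library.

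Of the 259 members, 214 had a gene of the parent symbol in the table and 213 had a parent that met the same rule on level, which made 213 pairs with 141 different parents. Members were not independent of each other: 111 shared a parent with another member, 39 parents had more than 1 member, and Rpl17 had 6. The level of a member was a median of 12.5% of the parent's, and 93 members stood under 10% of it. However, 23 members had a higher mean FPKM than their parent, 14 of them in 10 of 10 libraries. Mpc1-ps, a copy of the gene for a subunit of the mitochondrial pyruvate carrier, stood at 345 FPKM against 80.7 for Mpc1, and Rps12-ps3 at 228 FPKM against 65.4 for Rps12. Rpl21-ps15 held 71.7 FPKM while Rpl21 held 6.10. The glycolytic enzyme gene Gapdh was listed at 9.42 FPKM, below its copies Gapdh-ps15 with 27.9 and Gapdh-ps16 with 17.8, which together made up 85.0 ± 2.88% of the summed FPKM of the 3 genes in the controls and 81.6 ± 5.60% in the labelled knockdown (SD, n = 5 each). For Gapdh-ps15, 64.3% of windows were found in Gapdh and 88.9% in some other gene, and for Gapdh-ps16 58.9% and 95.9%, so fragments of the family cannot all be placed by sequence. No source used here states how the authors' quantification divided fragments that match several genes.

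**Figure D2:**
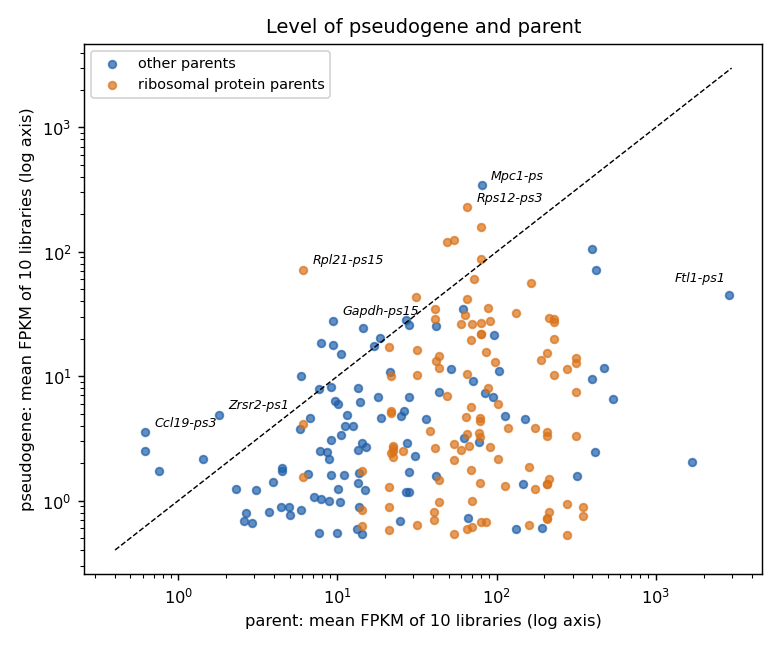
Mean FPKM over 10 libraries of the parent gene (x axis, log scale) and of the pseudogene (y axis, log scale) for 213 pairs, with pairs of ribosomal protein genes in orange and others in blue and equality as a dashed line. Most points lie below the line, and 23 lie above it, among them Mpc1-ps, Rps12-ps3, Rpl21-ps15 and Gapdh-ps15.

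Between the groups, 32 of the 259 members rose and 13 fell in the labelled knockdown (limma on log2(FPKM + 1), Benjamini-Hochberg adjusted p under 0.05 over 13471 genes). That is 12.4% of members called higher against 7.13% of all genes tested, and 5.02% called lower against 9.65% of all genes tested. The median log2 fold change was 0.11 over the members and -0.04 over all genes tested. The groups did not overlap for 20 higher and 7 lower members, where 5.66% and 7.48% of all genes tested had groups that did not overlap in these directions.

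The members are short, with a median longest transcript of 608 bases against 2970 bases for tested genes, and the 2 groups differed by length across the whole table. The slope of log2(FPKM + 1) per doubling of transcript length, relative to each gene's mean, was 0.019 to 0.046 in the control libraries and -0.059 to -0.0070 in the labelled knockdown libraries, with no overlap. With that length trend removed from each library, 7 members were called higher and 18 lower of the 248 with a known length, where the same fit called 6.78% and 5.46% of all genes with a length, and the median of the members was -0.02. The direction of the set as a whole therefore turned with the length trend. Of the called members with a known length, 19 kept their result under that fit and 24 grew weaker. The rises and falls of single members given below come from the fit that kept the trend.

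Single libraries also moved these counts. Without labelled knockdown library 3 the fit called 15 members higher, without control library 2 it called 17, without control library 3 19, and without control library 4 21. Of the 32 members called higher, 10 kept the call whichever library was left out, over 10 fits, and of the 13 called lower 5 did.

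**Figure D3:**
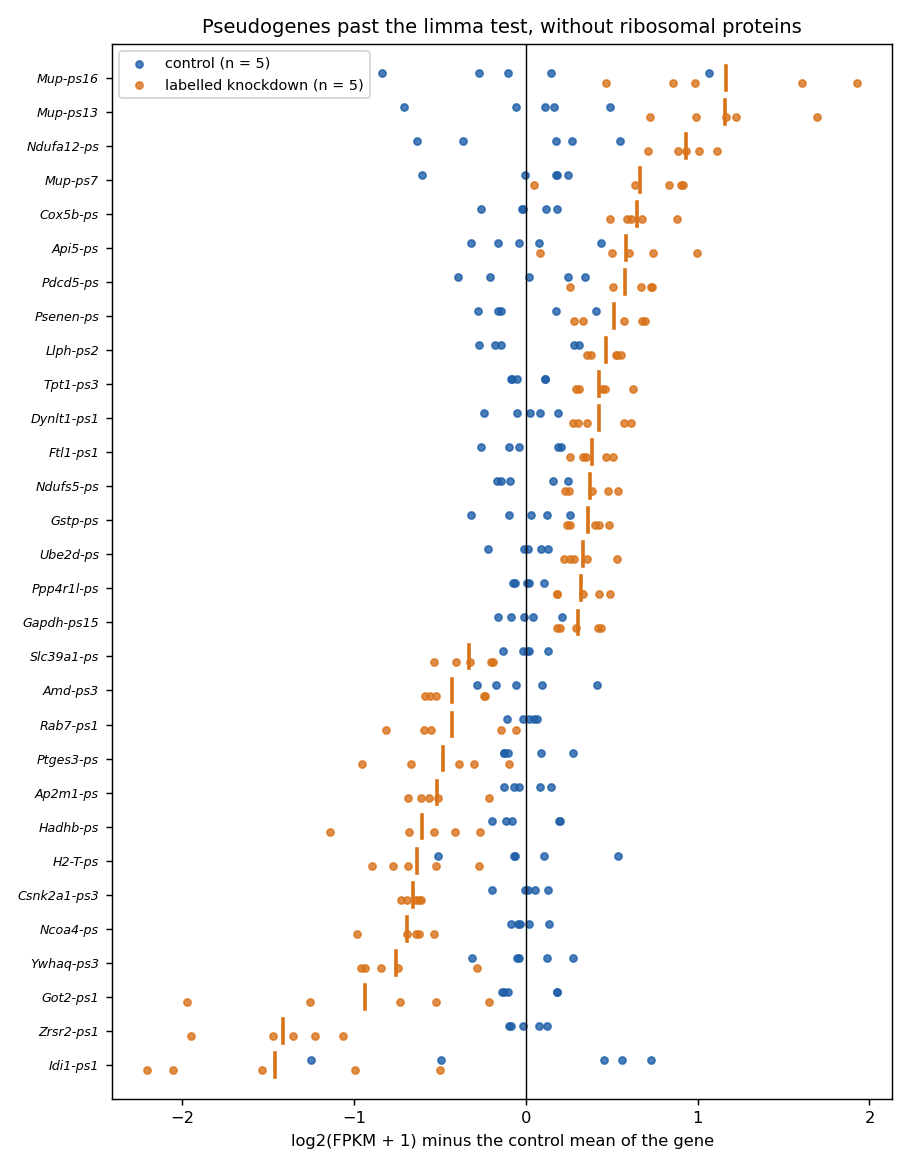
Each row is a pseudogene called by limma, copies of ribosomal protein genes left out, and each point a library's log2(FPKM + 1) minus that gene's control mean (x axis; control in blue, labelled knockdown in orange, n = 5 each), with the labelled knockdown mean as an orange bar. The 17 higher genes are above and the 13 lower genes below, and Zrsr2-ps1 and Csnk2a1-ps3 are among the rows whose groups stand apart without overlap.

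Ribosomal proteins, the structural proteins of the ribosome, gave the largest group of copies. Of the 109 ribosomal protein members, 15 rose and 0 fell, against 7.13% and 9.65% of all genes tested, with a median log2 fold change of 0.19; with the length trend removed the median was 0.02. At an unadjusted limma p under 0.05, 39 were higher and 2 lower, where 13.9% of all genes tested were higher and 19.6% lower. The groups did not overlap for 11 of the 109, and all 11 were higher. Of 82 tested cytosolic ribosomal protein genes, 46 rose and 0 fell, with a median of 0.35, and 0.24 with the length trend removed, and at an unadjusted limma p under 0.05, 54 were higher and 0 lower. The share called was thus smaller and the median nearer 0 among the copies than among the functional genes, and this difference was not tested. The copies were also weaker, with a median level of 3.81 FPKM against 79.1 FPKM over the 85 functional genes of the list. Adding 1 FPKM makes changes of weak genes look smaller, so a smaller change of the copies cannot be told apart from their lower level.

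Rpl28-ps1 held 21.8, 20.3, 18.7, 21.2 and 23.7 FPKM in control libraries 1 to 5 and 41.3, 31.2, 27.2, 31.3 and 38.6 FPKM in the labelled knockdown. Its groups did not overlap, and it rose by a log2 fold change of 0.65 with a standard error of 0.11 (limma, adjusted p = 0.00944). Rpl28 itself went from 73.2 ± 4.04 to 109 ± 8.45 FPKM (SD, n = 5 each), a log2 fold change of 0.57 (limma, adjusted p = 0.00641). The transcript of Rpl28-ps1 was identical to that of Rpl28 in every window.

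Rps6-ps4 and Rpl15-ps6 behaved differently, in that they rose while their parents were not called. Rps6-ps4 went from 25.3 ± 2.27 to 33.0 ± 2.70 FPKM (a log2 fold change of 0.38; limma, adjusted p = 0.0159), with Rps6 at 205 ± 14.8 and 223 ± 18.2 FPKM (adjusted p = 0.320). Rpl15-ps6 went from 4.75 ± 0.592 to 6.60 ± 0.636 FPKM (a log2 fold change of 0.40; limma, adjusted p = 0.0168), with Rpl15 at 66.6 ± 3.11 and 71.7 ± 3.34 FPKM (adjusted p = 0.294). In both pairs the ratio of pseudogene to parent was higher in each labelled knockdown library than in any control library. Every window of Rps6-ps4 was found in Rps6, and 71.5% of the windows of Rpl15-ps6 in Rpl15. Fragments of these pairs therefore cannot all be placed by sequence, and the ratio depends on how the authors' quantification divided them.

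On the log2(FPKM + 1) scale the largest fold change among ribosomal protein copies was that of Rps23-ps2, at 0.240 to 3.60 FPKM in the controls and 2.05 to 4.48 FPKM in the labelled knockdown, a log2 fold change of 0.96 with overlapping groups (limma, adjusted p = 0.0480), called in 1 of the 10 fits that left out a library. Rpl17-ps4 rose from 0.379 ± 0.121 to 0.973 ± 0.230 FPKM (a log2 fold change of 0.51; limma, adjusted p = 0.0105), having met the rule on level only through the labelled knockdown. By the ratio of mean FPKM, the weak copies Rps12-ps17, at 2.72, and Rpl17-ps4, at 2.57, stood above Rps23-ps2, at 2.37. Rps12-ps17 also met the rule only through the labelled knockdown, so the ratios of these weak copies are given as a description. Among the others called higher were Rpl36a-ps2, Rpsa-ps2, Rpl35a-ps2, Rps6-ps3, Rpl21-ps8, Rpl27-ps3, Rpl14-ps1 and Rpsa-ps10. Copies of the same parent did not all pass: Rpsa-ps2 and Rpsa-ps10 rose, and Rpsa-ps7 had a log2 fold change of -0.03 that was not called. Rps19-ps6 had the lowest fold change of the ribosomal copies on the log2(FPKM + 1) scale, while Rps26-ps1 was slightly lower by the ratio of mean FPKM, at 0.533 against 0.543. Rps19-ps6 held 10.5 to 34.1 FPKM in the controls and 8.32 to 19.3 FPKM in the labelled knockdown, with overlapping groups and no call (log2 fold change -0.78, limma adjusted p = 0.111). Its parent Rps19 rose from 18.2 ± 1.91 to 23.9 ± 1.65 FPKM (adjusted p = 0.0167).

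The smaller groups of copies that follow are to be read against the same 7.13% called higher and 9.65% called lower among all genes tested, or 13.9% and 19.6% at an unadjusted p under 0.05; with few members each, 1 or 2 calls move their shares widely. Among copies of translation factors and ribosome assembly factors, 2 of 10 rose and 0 fell (4 and 1 at an unadjusted limma p under 0.05). Tpt1-ps3 copies the gene for translationally controlled tumour protein, and its transcript was identical to that of Tpt1 in every window. It held 65.1, 58.0, 56.6, 56.9 and 65.0 FPKM in the controls and 93.5, 74.8, 74.0, 82.2 and 83.1 FPKM in the labelled knockdown, without overlap. Its log2 fold change of 0.43 (limma, adjusted p = 0.0117) stood beside 0.39 for Tpt1 (adjusted p = 0.0176), and its level stayed at 15.7 to 18.2% of the parent's in the 10 libraries. Llph-ps2 rose with Llph, by 0.47 and 0.38 on the log2 scale (limma, adjusted p = 0.0262 and 0.0325).

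Among copies of genes for mitochondrial proteins, 3 of 21 rose and 2 fell (6 and 5 at an unadjusted limma p under 0.05), and the share that fell was close to the 9.65% of all genes. The 3 that rose copy subunits of the respiratory chain. Cox5b-ps, a copy of the gene for a subunit of cytochrome c oxidase, held 6.98, 9.37, 8.43, 9.86 and 8.45 FPKM in the controls and 16.6, 13.4, 14.3, 12.5 and 13.6 FPKM in the labelled knockdown. Its groups did not overlap, with a log2 fold change of 0.65 and a standard error of 0.10 (limma, adjusted p = 0.00754), and Cox5b rose by 0.55 (adjusted p = 0.00518). Only 21.3% of its windows were found in Cox5b.

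Ndufa12-ps, a copy of a complex I subunit gene, held 18.4, 9.29, 7.56, 15.0 and 14.0 FPKM in the controls and 25.7, 24.3, 27.7, 23.5 and 20.7 FPKM in the labelled knockdown. It rose without overlap by 0.93 on the log2 scale (limma, adjusted p = 0.0143), and Ndufa12, at 7.12 ± 1.96 and 8.70 ± 0.969 FPKM, was not called (adjusted p = 0.209). The pseudogene stood above its parent in 10 of 10 libraries, and an exact permutation test of the ratio of the pair, two-sided, gave p = 0.151. Ndufs5-ps, a copy of another complex I subunit gene, rose from 0.902 ± 0.255 to 1.46 ± 0.232 FPKM with overlapping groups (log2 fold change 0.38, limma adjusted p = 0.0329).

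The 2 mitochondrial copies that fell were Got2-ps1 and Hadhb-ps. Got2-ps1 copies the gene for mitochondrial aspartate aminotransferase, and held 8.74, 8.68, 11.1, 8.91 and 11.1 FPKM in the controls and 1.72, 3.46, 5.41, 8.18 and 6.42 FPKM in the labelled knockdown. The groups did not overlap, but labelled knockdown library 4 came close to the lowest controls. The log2 fold change was -0.94 with a standard error of 0.27 (limma, adjusted p = 0.0371); over the fits that left out 1 library it was -1.12 to -0.68 with adjusted p from 0.0152 to 0.0795, and it passed in 3 of them, those without labelled knockdown library 1, 4 or 5. Got2 held 87.3 ± 7.27 FPKM in the controls and 80.7 ± 2.12 FPKM in the labelled knockdown and was not called (log2 fold change -0.11, adjusted p = 0.323).

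Hadhb-ps copies the gene for the beta subunit of the mitochondrial trifunctional protein of fatty acid oxidation, and held 29.5, 31.3, 39.1, 32.2 and 39.0 FPKM in the controls and 14.9, 28.1, 25.3, 23.2 and 20.8 FPKM in the labelled knockdown. Its groups did not overlap, and the log2 fold change was -0.61 (limma, adjusted p = 0.0242), with adjusted p = 0.0590 without control library 3 and 0.0521 without labelled knockdown library 5. Hadhb, at 30.5 ± 4.27 and 23.7 ± 3.42 FPKM, had a log2 fold change of -0.35 and was not called (adjusted p = 0.0647).

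Copies of genes for metabolic enzymes and ferritins numbered 26, of which 3 rose and 2 fell (8 and 6 at an unadjusted limma p under 0.05). Ftl1-ps1, a copy of the ferritin light chain gene, rose from 38.9 ± 5.40 to 50.8 ± 3.70 FPKM (a log2 fold change of 0.38; limma, adjusted p = 0.0266), and its level was 1.39 to 1.64% of the parent's in every library. Within that range its log2 ratio to Ftl1 was higher by 0.10 in the labelled knockdown, with overlapping groups (unadjusted exact permutation p = 0.0397). Gstp-ps, named for the pi class of glutathione S-transferases, and Gapdh-ps15 rose by 0.36 and 0.31 on the log2 scale with overlapping groups (limma, adjusted p = 0.0403 and 0.0367). Amd-ps3, named for the polyamine enzyme adenosylmethionine decarboxylase, fell by 0.43 on the log2 scale with overlapping groups (limma, adjusted p = 0.0470).

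Idi1-ps1 fell with its parent. Idi1 encodes isopentenyl diphosphate isomerase, an enzyme of cholesterol synthesis, and every window of Idi1-ps1 was found in it. Idi1-ps1 held 6.28, 16.0, 13.1, 14.2 and 3.31 FPKM in the controls and 1.23, 1.47, 4.16, 6.27 and 2.54 FPKM in the labelled knockdown, and Idi1 held 28.3, 61.2, 49.0, 53.1 and 13.3 FPKM in the controls and 8.94, 9.52, 18.7, 26.5 and 11.9 FPKM in the labelled knockdown. In both genes the groups overlapped through control library 5, which was the lowest control. The log2 fold changes were -1.46 for Idi1-ps1 and -1.32 for Idi1 (limma, adjusted p = 0.0363 and 0.0449). Idi1-ps1 passed in 3 of the 10 fits that left out 1 library, with adjusted p from 0.0154 without control library 5 to 0.0856 without control library 2. Its level was 13.8 to 26.7% of the parent's over the 10 libraries. The log2 ratio of the pair, labelled knockdown minus control, was -0.14 with 1 FPKM added (unadjusted exact permutation p = 0.111). With nothing added it was -0.42 (unadjusted exact permutation p = 0.0238).

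Idi1-ps2, which shared 1.20% of its windows with Idi1 and held 3 stop codons within the frame, had a log2 fold change of -0.66 and was not called (adjusted p = 0.0592). Of the 20 genes of cholesterol synthesis, 7 fell and 0 rose (10 and 0 at an unadjusted limma p under 0.05), with a median log2 fold change of -0.60. Among all genes tested 9.65% were called lower and 7.13% higher, or 19.6% and 13.9% at an unadjusted limma p under 0.05. The groups did not overlap for 1 of the 20, which was lower, against 7.48% of all genes tested.

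Major urinary proteins are small pheromone carriers that the liver secretes and the kidney passes into urine. Of their 8 measurable pseudogenes, 3 rose and 0 fell (4 and 0 at an unadjusted limma p under 0.05), against 7.13% and 9.65% of all genes tested. Mup-ps13 held 2.71, 3.17, 4.42, 3.33 and 1.36 FPKM in the controls and 6.67, 11.5, 7.66, 5.37 and 8.02 FPKM in the labelled knockdown, without overlap, for a log2 fold change of 1.16 with a standard error of 0.22 (limma, adjusted p = 0.0102). Mup-ps16 and Mup-ps7 rose by 1.17 and 0.67 on the log2 scale with overlapping groups (limma, adjusted p = 0.0404 and 0.0397), and Mup-ps16 passed in 3 and Mup-ps7 in 1 of the 10 fits that left out 1 library.

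Of 20 functional major urinary protein genes 0 were called by limma, and 2 were higher and 0 lower at an unadjusted p under 0.05, with a median log2 fold change of 0.85 and a summed level of 833 to 8140 FPKM over the control libraries against 3600 to 4122 FPKM over the labelled knockdown. The abundant copy Mup-ps19 held 755, 2067, 1537, 1583 and 284 FPKM in the controls and 581, 781, 709, 933 and 488 FPKM in the labelled knockdown, and was not called (log2 fold change -0.58, adjusted p = 0.404). Control library 5 was lowest and control library 2 highest for both the functional genes and Mup-ps19. Mup-ps20 swung between 0 and 97.7 FPKM within the labelled knockdown and between 0.143 and 87.2 FPKM within the controls.

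Of 51 copies of genes with other roles, 6 rose and 6 fell (10 and 12 at an unadjusted limma p under 0.05). Those that rose were Api5-ps, Pdcd5-ps, Psenen-ps, Dynlt1-ps1, Ube2d-ps and Ppp4r1l-ps, with log2 fold changes from 0.32 to 0.58. Pdcd5-ps, whose windows were all found in Pdcd5, went from 7.84 ± 1.84 to 12.1 ± 1.72 FPKM (limma, adjusted p = 0.0248), above Pdcd5 in 10 of 10 libraries. Api5-ps had no window in common with Api5 and rose from 0.266 ± 0.264 to 0.906 ± 0.426 FPKM with overlapping groups (limma, adjusted p = 0.0418), while Api5 had a log2 fold change of -0.18 and was not called (adjusted p = 0.236).

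Of the 6 that fell, Csnk2a1-ps3 had the smallest adjusted p. It copies the gene for a catalytic subunit of casein kinase 2, and held 5.32, 6.22, 6.91, 6.50 and 6.29 FPKM in the controls and 3.70, 3.64, 3.36, 3.74 and 3.48 FPKM in the labelled knockdown. The log2 fold change was -0.66 with a standard error of 0.07 (limma, adjusted p = 0.00381). Csnk2a1 itself held 11.4 ± 0.620 and 11.3 ± 1.05 FPKM and was not called (log2 fold change -0.01, adjusted p = 0.908; its sign turned under another scaling and with the length trend removed). Of the windows of Csnk2a1-ps3, 79.7% were found in the parent, and the copy carried 1 mismatch in the coding part.

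Ap2m1-ps, a copy of the gene for the medium subunit of the clathrin adaptor AP-2, held 27.2, 28.4, 29.0, 33.1 and 31.7 FPKM in the controls and 19.2, 18.1, 20.6, 25.6 and 19.9 FPKM in the labelled knockdown. It fell without overlap by 0.52 on the log2 scale (limma, adjusted p = 0.0102), and Ap2m1 was not called, at 42.6 ± 1.10 and 41.1 ± 2.42 FPKM (adjusted p = 0.624). Of 25 copies of genes for RNA-binding, chromatin and transcription proteins, 0 rose and 2 fell (2 and 5 at an unadjusted limma p under 0.05), namely Ncoa4-ps and Zrsr2-ps1. Ncoa4-ps, a copy of the gene for the receptor that delivers ferritin to autophagy, went from 8.06 ± 0.548 to 4.63 ± 0.632 FPKM (a log2 fold change of -0.69; limma, adjusted p = 0.00612). Ncoa4 also fell, from 11.1 ± 0.820 to 8.17 ± 0.727 FPKM (a log2 fold change of -0.40; limma, adjusted p = 0.0105).

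Ywhaq-ps3, a copy of a 14-3-3 adaptor gene, fell from 8.74 ± 1.46 to 4.81 ± 1.22 FPKM with labelled knockdown library 4 overlapping the lowest control (log2 fold change -0.75, limma adjusted p = 0.0102). Among 9 copies of genes for immune and plasma proteins, 0 rose and 1, H2-T-ps, fell (0 and 1 at an unadjusted limma p under 0.05). H2-T-ps, named for major histocompatibility class I genes, Ptges3-ps, a copy of an HSP90 co-chaperone gene, Rab7-ps1, a copy of a late endosome GTPase gene, and Slc39a1-ps, a copy of a zinc transporter gene, fell with log2 fold changes from -0.63 to -0.33. Of these 4, Slc39a1-ps had groups that did not overlap.

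Setting fold changes side by side, 25 members that rose had a tested parent. Of these members, 15 had a parent called higher, 24 a parent with a positive log2 fold change and 0 a parent called lower. These are counts of members, and a parent such as Rps6 or Rpsa enters once for each of its copies that rose. Of the 11 members that fell and had a tested parent, 3 had a parent called lower, 10 a parent with a negative log2 fold change and 0 a parent called higher. Of the 141 parents, 35 rose and 8 fell, where 7.13% of all genes tested rose and 9.65% fell. Pseudogene and parent were measured in the same libraries and share sequence, so these counts are not independent observations. By shared sequence, 9 of the 38 members whose windows all lay in another gene rose and 3 fell. With 50% to under 100% of windows shared, 13 of 112 rose and 5 fell, with less than 50% shared 8 of 91 rose and 4 fell, and with none shared 0 of 7 rose and 1 fell. From most to least shared, the classes with shared windows had 23.7%, 11.6% and 8.79% called higher and 7.89%, 4.46% and 4.40% called lower. Among all genes tested, 7.13% were called higher and 9.65% lower. These shares were not tested against each other.

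**Figure D4:**
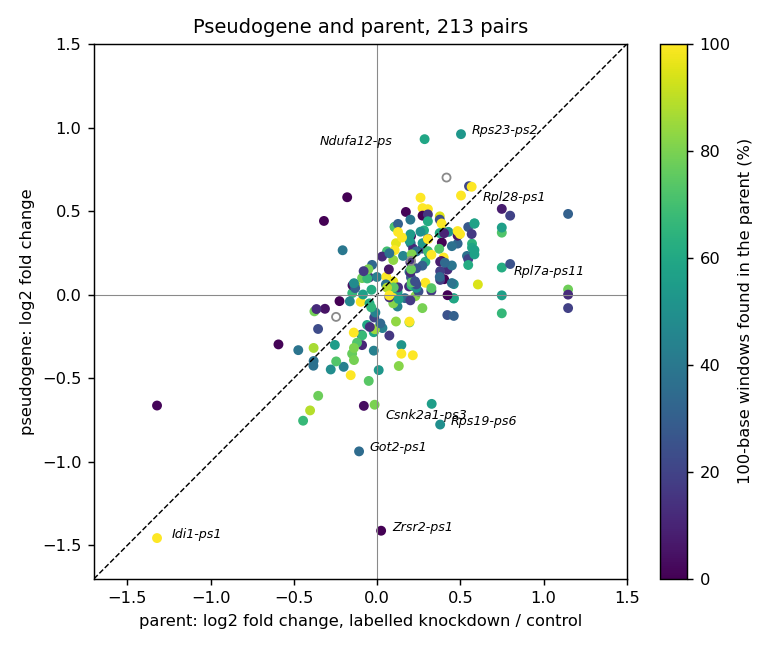
Log2 fold change of the parent (x axis) and of the pseudogene (y axis), labelled knockdown over control, for 213 pairs, coloured by the percentage of 100-base windows of the pseudogene found in the parent (open circles, no value) with equality as a dashed line. Idi1-ps1 lies near the line with its parent, and Zrsr2-ps1, Got2-ps1 and Csnk2a1-ps3 lie far below it while their parents are near 0.

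The ratio of pseudogene to parent was compared between the groups, taken in each library as log2(pseudogene FPKM + 1) minus log2(parent FPKM + 1). Over 213 pairs, an exact two-sided permutation test on that ratio, whose smallest possible p is 0.00794, gave an unadjusted p under 0.05 in 31 pairs, 14.6%, with the ratio higher in 11, 5.16%, and lower in 20, 9.39%. The ratios of the groups did not overlap in 14 pairs, 6.57%. These p-values are not adjusted for the 213 pairs tested. Adding 1 FPKM shrinks the change of a weak copy more than that of a stronger parent, so with 35 parents called higher and 8 lower such a ratio can fall at equal folds. With nothing added, over the 212 pairs above 0 in every library, 30 pairs had an unadjusted exact p under 0.05, 12 with a higher and 18 with a lower ratio, and with 0.1 FPKM added 13 were higher and 17 lower.

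The pairs whose ratio fell furthest among these 14 were Zrsr2-ps1, by 1.44 on the log2 scale, Got2-ps1, by 0.83, Csnk2a1-ps3, by 0.64, and Rab11b-ps2, by 0.56 (exact permutation p = 0.00794 each). In FPKM, Csnk2a1-ps3 made up 35.3 ± 2.60% of its level summed with the parent in the controls and 24.1 ± 2.14% in the labelled knockdown, Ap2m1-ps 41.2 ± 2.21% and 33.4 ± 2.62%, and Got2-ps1 9.99 ± 0.925% and 5.78 ± 2.68% (SD, n = 5 each). Rab11b-ps2, a copy of a recycling endosome GTPase gene, was not called by itself, at 9.40 ± 1.73 and 6.73 ± 1.23 FPKM (limma, adjusted p = 0.0552). Windows found in the parent were 79.7% for Csnk2a1-ps3, 74.2% for Ap2m1-ps, 34.9% for Got2-ps1 and 82.0% for Rab11b-ps2. Fragments of these pairs cannot all be placed by sequence, so their ratios depend on how the authors' quantification divided them. The ratio was higher without overlap in 4 pairs, those of Ppp1r2-ps4, Rpl15-ps6, Rps6-ps4 and Atp6v0c-ps2.

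Mpc1-ps, at 348 ± 74.5 and 342 ± 38.5 FPKM, and Mpc1, at 74.7 ± 16.2 and 86.8 ± 8.43 FPKM, were both not called, yet Mpc1-ps made up 82.3 ± 0.972% of their sum in the controls and 79.7 ± 1.09% in the labelled knockdown (exact permutation p of the log2 ratio 0.00794). Rps10-ps2, at 119 ± 9.79 and 122 ± 13.1 FPKM, did not follow the rise of Rps10 from 43.2 ± 3.59 to 54.3 ± 3.91 FPKM (limma, adjusted p = 0.0225), and their log2 ratio fell by 0.29 (exact permutation p = 0.00794). Bhmt-ps1, a copy of the gene for betaine-homocysteine methyltransferase, an enzyme of the methyl cycle fed by choline, showed a log2 ratio lower by 0.23 with neither gene called (exact permutation p = 0.00794). Of the windows of Mpc1-ps 82.3% were found in the parent, of Rps10-ps2 73.8% and of Bhmt-ps1 43.0%. The ratios of these pairs too depend on how shared fragments were divided, and a separate change of copy and parent was not tested.

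In other pairs the FPKM of the copy, given as a percentage of the parent's, kept to narrow ranges. Rpl10-ps3 stood at 11.1 to 12.6% of Rpl10, Ubb-ps, the more abundant of the genes with that symbol, at 24.1 to 28.4% of the polyubiquitin gene Ubb, and Vdac3-ps1 at 93.4 to 115% of Vdac3, a gene for an outer mitochondrial membrane channel, across the 10 libraries. Vdac3-ps1 thus lay below its parent in some libraries and above it in others. These pairs were picked among the steadiest. Of the windows of Rpl10-ps3 95.8% were found in the parent, of this Ubb-ps 77.1% and of Vdac3-ps1 65.3%. Whether the division of shared fragments kept these ratios steady was not tested.

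Zrsr2-ps1 had the smallest adjusted p of all members and the least sequence in common with its parent. Zrsr2 encodes a protein that recognises the 3′ splice site of introns removed by the minor spliceosome, and Zrsr2-ps1 is an intronless relative that the GENCODE M21 and RefSeq annotations call Zrsr1. Zrsr2-ps1 held 7.01, 6.95, 7.96, 7.42 and 8.24 FPKM in control libraries 1 to 5 and 2.63, 3.06, 2.33, 2.07 and 1.21 FPKM in labelled knockdown libraries 1 to 5. Every control library stood more than double the highest labelled knockdown library, and the gene fell by 1.41 on the log2 scale with a standard error of 0.14 (limma, adjusted p = 0.00209). The call held whichever of the 10 libraries was left out, with log2 fold changes from -1.50 to -1.28. Zrsr2 held 1.77 ± 0.242 FPKM in the controls and 1.81 ± 0.144 FPKM in the labelled knockdown, and was not called (log2 fold change 0.02, adjusted p = 0.851; without control library 1 or 3 its sign turned). No window of Zrsr2-ps1, of 100 or 50 bases, was found in Zrsr2.

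A second gene of the table covers the same bases. The transcript of ENSMUSG00000121808, typed as lncRNA, is 3282 bases long in a single exon and contains all 1287 bases of the single exon of Zrsr2-ps1 on the same strand. GENCODE M21 lists both transcripts under 1 gene. ENSMUSG00000121808 held 0.742, 0.793, 0.799, 0.860 and 0.818 FPKM in the controls and 5.37, 4.46, 4.06, 4.50 and 3.85 FPKM in the labelled knockdown, a rise of 1.59 on the log2 scale with a standard error of 0.08 (limma, adjusted p = 3.8e-06). The 2 overlapping genes thus moved in opposite directions, both without overlap between the groups.

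To set them on 1 scale, FPKM was multiplied by transcript length in kilobases, which gives fragments scaled to library size alone. Zrsr2-ps1 then took 78.6 ± 1.21% of the fragments of the pair in the controls and 16.4 ± 3.81% in the labelled knockdown (SD, n = 5 each; p = 0.00794, the smallest the exact permutation test allows). Their sum was 12.3 ± 0.804 on that scale in the controls and 17.5 ± 2.54 in the labelled knockdown, without overlap (SD, n = 5 each, exact permutation p = 0.00794). A fragment from the shared 1287 bases can be assigned to either gene, so the level of each depends on how the authors' quantification divided them, and the fall of Zrsr2-ps1 cannot be told apart from a change in that division. Commd1, a neighbouring gene known in the mouse to host this copy in an intron, held 4.57 ± 0.403 and 4.62 ± 0.975 FPKM and was not called (adjusted p = 0.997). Of 12 tested genes of the minor spliceosome, Rnpc3 and Snrnp48 rose by 0.39 and 0.24 on the log2 scale (limma, adjusted p = 0.0257 and 0.0466), and Dhx15 fell by 0.45 (adjusted p = 0.0136). These calls, 2 higher and 1 lower, are 16.7% and 8.33% of the list, against 7.13% and 9.65% of all genes tested, and at an unadjusted limma p under 0.05, 6 were higher and 2 lower. Snrnp48 passed in 1, Rnpc3 in 6 and Dhx15 in 10 of the 10 fits that left out 1 library.

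**Figure D5:**
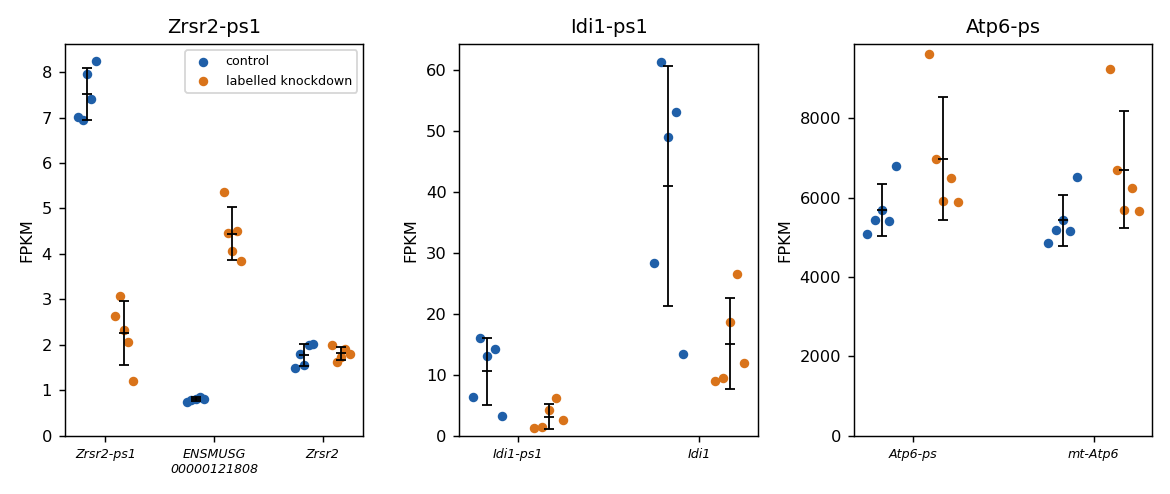
FPKM in each library (points) with mean and SD (black, n = 5 per group) for 3 pseudogenes and the genes they share sequence or position with, control in blue and labelled knockdown in orange. Zrsr2-ps1 falls as the overlapping ENSMUSG00000121808 rises, Idi1-ps1 falls with Idi1, and Atp6-ps follows mt-Atp6.

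In the authors' deposited table, ENSMUSG00000121808 was marked as up with a fold of 5.54 and Zrsr2-ps1 as down with a fold of 0.301. The authors' deposited table marked 6 of the 259 members as significant, 3 up and 3 down, namely Mup-ps13, Mup-ps16, Rpl17-ps4, Zrsr2-ps1, Idi1-ps1 and Idi1-ps2, and all of these but Idi1-ps2 were called here in the same direction. A further 4 named pseudogenes that failed the rule on level were marked in the authors' deposited table. One of them, Mup-ps18, was at 42.9 FPKM in labelled knockdown library 3 and at 0 in the other libraries.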

How the data were processed

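Liver RNA from 10 libraries, 5 per group by the sample titles, was poly(A)-selected and made strand-marked by the dUTP method, per the labels' protocols. The submitters' processing notes list cutadapt 1.9, HISAT2 2.0.4 and StringTie 1.3.4d; the build they name is human although the gene identifiers are mouse, so no genome coordinates are printed. The deposited table gave FPKM per library, per the file headers, scaled by the authors for the length of the transcript and the size of the library. For their own comparison the authors deposited a fold ratio, its log2 value, a p-value and a q-value, and no source used here names the test behind these. FPKM carries no counting interval: low values were whole multiples of a common step, within a tolerance of 0.02, in only 9.68 to 12.5% of cases, so depth is uncertain, whole reads were not recovered and no count test was run.

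Genes with at least 0.5 FPKM in at least 5 libraries, 13471 in all, were compared as log2(FPKM + 1), which makes changes of low genes look smaller, with limma 3.58.1 in R 4.3.3 (variance trend on, group as the only term, two-sided). Benjamini-Hochberg adjustment ran over all of them, with calls at 0.05. Ratios were compared by exact two-sided permutation. The fits were tested on simulated data. Replicate numbers did not pair the libraries. Transcript lengths and sequences came from GENCODE M21 by Ensembl identifier; alignments were local, scored 2 for a match, -3 for a mismatch, -5 to open and -2 to extend a gap. The members, gene lists and roles were chosen with earlier results of these data known. The rule for named genes took every called member, the 6 most abundant, and those whose parent was called or whose ratio had an exact p under 0.05; values in every library are printed for those the results turn on and the others are given by range, count or name; a few of them are not reported here. Alternatives were another pseudocount, other filters, median-of-ratios scaling, removal of the length trend by a spline with 4 degrees of freedom, no variance trend, a replicate block and leaving out each library. No sample column was left out, and 0 library pairs held identical values.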

Additional observations from a re-analysis of the deposited data

Results flagged for a closer look

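In 7 of 186 groups of 5 libraries checked, 1 library stood far from the other 4, where chance gives about 1 in 20. Among pseudogenes, Rpsa-ps10 was high in labelled knockdown library 5 at 22.7 FPKM, and Rpsa-ps2 was low in control library 2 at 1.83 FPKM. Among parents, Cox5b was high in control library 4 at 46.6 FPKM, Mpc1 was high in control library 5 at 103 FPKM, Rpl7a was low in control library 3 at 14.0 FPKM, Rpl17 was low in labelled knockdown library 2 at 55.4 FPKM and Ywhaq was low in labelled knockdown library 5 at 9.80 FPKM.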

How the results depend on the processing

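The counts of called members depended on the filter, on transcript length and on single libraries. Without a filter on low values 11 members were called higher and 5 lower, and with the length trend removed 7 were higher. Leaving out 1 library at a time gave 15 to 37 higher members, 6 to 19 lower members and 27 to 41 pairs with a ratio at an exact p under 0.05. The lowest counts of lower members came without control library 2 or 4, at 6 each, and the highest without labelled knockdown library 4. With nothing added to FPKM, a setting chosen after seeing the data, 30 pairs had such a ratio, and Ppp1r2-ps4 then had overlapping groups. The other settings kept each count within 1.5 times, from 30 to 44 higher and 10 to 18 lower; median-of-ratios scaling gave 44 and 10. Same-numbered libraries of the groups correlated from -0.015 to 0.11, so the numbers were not taken as pairs, and with the replicate block 32 members were higher and 12 lower. Some genes near 0 that were not called changed sign: with the length trend removed Ap2m1 was at 0.016, Csnk2a1 at 0.085, Rpl7a-ps11 at -0.10 and Rps10-ps2 at -0.13, and with median-of-ratios scaling Csnk2a1 was at 0.027 and Mpc1-ps at 0.036 (log2 fold changes). Over the fits that left out 1 library, Bhmt ranged from -0.075 to 0.16, Csnk2a1 from -0.045 to 0.024, Mpc1-ps from -0.063 to 0.11, Mup-ps20 from -1.42 to 0.55, Rpl7a-ps11 from -0.069 to 0.14, Rps10-ps2 from -0.0066 to 0.10 and Zrsr2 from -0.013 to 0.057. Beyond the length trend and the libraries named, the cause was not tested. The number of members was 329 with a threshold of 0.25 FPKM and 208 with a threshold of 1 FPKM.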
